A study of Arabidopsis thaliana with 36 samples.

Results

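Aliphatic glucosinolates are defence compounds that Arabidopsis thaliana makes from methionine, and 34 genes of their synthesis, regulation and transport were followed by their locus identifiers through 36 RNA-seq libraries. Of the 34 genes named, 33 had a row among the 34218 features counted. AOP2 was not analysed here. After the filter on low counts 29 of the 33 could be tested in roots and 31 in shoots, and 32 could be tested when both organs were fitted together.

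In this pathway methionine is first deaminated and lengthened carbon by carbon, and the lengthened amino acid is then turned into the glucosinolate core by cytochrome P450 enzymes, sulfur donation, C-S cleavage, glucosylation and sulfation. The side chain is modified last, R2R3 MYB proteins activate the genes, and plasma membrane carriers move the products between organs. The core steps after the P450 enzymes are in part shared with the tryptophan-derived (indole) glucosinolates. Glucosinolates hold both nitrogen and sulfur, and NLP7 and NLP2, the genes mutated here, encode NIN-like transcription factors of the nitrate response.

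Roots and shoots (whole rosettes) were taken from plants 42 days old, grown in sand with 5 mM nitrate, a non-limiting supply, under 8 h of light and 16 h of dark after 3 days of stratification in the cold. The 12 groups of 3 libraries each were 6 genotypes in both organs: the wild-type lines Col-0 and Col-4, the single mutants nlp2-2, nlp2-3 and nlp7-1, and the double mutant nlp2-3 nlp7-1. All plants carry the ecotype tag Col-0; the line name Col-4 stands in the sample titles. nlp2-2 was set against Col-4 and the other mutants against Col-0, so nlp2-3, nlp7-1 and the double mutant share their 3 Col-0 control libraries in each organ and their changes are not independent of each other. The labels do not say how many plants made up a replicate or whether replicates were grown apart, so the p-values below measure the spread between these libraries, which may be technical. In whole organs, fewer cells of a type and less RNA per cell cannot be told apart.

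Libraries held 18400000 to 28500000 counted reads in roots and 18200000 to 31700000 in shoots. CPM below are counts per 1000000 reads after TMM scaling of library sizes. Marker sums and the limits given for counts of 0 were instead scaled by library totals alone. The organs were checked by markers: 8 leaf genes such as RBCS1A summed to 42.7 to 131 CPM in roots and 65115 to 78420 CPM in shoots. The list of 7 root genes such as PYK10 summed to 2459 to 4083 CPM in roots and 20.8 to 35.9 CPM in shoots. RHD6, a root hair regulator in that list, had no count in any shoot library. NLP7 transcripts fell in nlp7-1 (log2 fold change -1.55 in roots, -1.19 in shoots) and, in the same organs, in double mutants (-1.32 and -1.04). NLP2 transcripts were lower in nlp2-2 (-1.62 and -0.53), nlp2-3 (-0.84 and -1.74) and the double mutant (-0.41 and -2.57), and higher in nlp7-1 roots (0.51).

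Promoter sequences are given for some of the members that moved in the same direction in at least 3 of the 4 mutants in 1 organ, and for CYP79F2, the near-identical neighbour of one of them. Each line gives the 250 bases before the annotated gene start in the RefSeq annotation of TAIR10.1, 5′ to 3′ on the gene's own strand; the submitters' processing notes name TAIR10 for the counts. Capitals mark AC elements (ACCAAAC or ACCAACC, and also ACCTAAC or ACCTACC, on either strand), the class of site that R2R3 MYB proteins are known to bind.
BAT5, raised in roots of all 4 mutants and lowered in shoots of 3, chr4:7210557-7210806, plus strand: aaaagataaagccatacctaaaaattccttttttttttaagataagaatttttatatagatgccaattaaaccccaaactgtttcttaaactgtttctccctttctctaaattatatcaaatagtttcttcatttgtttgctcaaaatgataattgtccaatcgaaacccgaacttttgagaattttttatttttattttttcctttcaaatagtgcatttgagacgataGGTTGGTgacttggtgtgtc
SOT17, raised in roots of 3 mutants, chr1:6398281-6398530, plus strand: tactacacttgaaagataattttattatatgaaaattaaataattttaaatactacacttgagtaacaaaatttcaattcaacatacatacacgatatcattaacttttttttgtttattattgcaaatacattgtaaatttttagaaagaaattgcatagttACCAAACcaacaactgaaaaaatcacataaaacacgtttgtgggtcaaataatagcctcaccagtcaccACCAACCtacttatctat
BCAT4, raised in roots of 3 mutants and lowered in shoots of 3, chr3:6849583-6849832, minus strand: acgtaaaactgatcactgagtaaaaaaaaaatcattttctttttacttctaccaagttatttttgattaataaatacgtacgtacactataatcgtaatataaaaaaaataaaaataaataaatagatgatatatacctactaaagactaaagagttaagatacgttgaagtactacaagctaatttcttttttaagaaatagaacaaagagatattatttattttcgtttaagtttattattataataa
GSTU20, raised in roots of all 4 mutants, chr1:29485390-29485639, minus strand: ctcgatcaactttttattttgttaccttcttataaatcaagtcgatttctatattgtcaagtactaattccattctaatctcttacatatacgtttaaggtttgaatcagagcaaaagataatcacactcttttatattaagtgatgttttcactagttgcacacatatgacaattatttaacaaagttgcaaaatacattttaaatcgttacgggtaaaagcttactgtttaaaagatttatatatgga
IMD1, lowered in shoots of 3 mutants, chr5:4575873-4576122, plus strand: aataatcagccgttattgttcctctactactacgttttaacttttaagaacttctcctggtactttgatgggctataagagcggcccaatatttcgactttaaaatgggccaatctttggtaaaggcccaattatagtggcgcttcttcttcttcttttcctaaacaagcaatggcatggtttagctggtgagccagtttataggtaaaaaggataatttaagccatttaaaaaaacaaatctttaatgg
CYP79F1, lowered in shoots of 3 mutants, chr1:5608432-5608681, plus strand: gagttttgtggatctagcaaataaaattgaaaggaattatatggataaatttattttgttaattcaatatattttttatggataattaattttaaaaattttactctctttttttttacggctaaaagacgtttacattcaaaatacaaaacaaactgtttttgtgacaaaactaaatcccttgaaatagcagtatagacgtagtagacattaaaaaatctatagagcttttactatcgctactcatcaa
CYP79F2, the paralog of CYP79F1, chr1:5604794-5605043, plus strand: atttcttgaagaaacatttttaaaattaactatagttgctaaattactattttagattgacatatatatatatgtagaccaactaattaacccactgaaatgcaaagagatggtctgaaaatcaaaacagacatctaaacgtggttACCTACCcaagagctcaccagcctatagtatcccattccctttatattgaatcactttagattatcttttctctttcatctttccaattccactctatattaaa
An AC element was found in the promoters of BAT5, SOT17 (2 copies) and CYP79F2, and none was found in those of BCAT4, GSTU20, IMD1 and CYP79F1. Among all 33 members 10 promoters held at least 1 AC element (30.3%), against 13.7% of the 27443 promoters of protein-coding nuclear genes. The G-box (CACGTG) stood in 3 members' promoters (9.09% against 6.49% of all), and the opening of the nitrate-responsive element (TGACCCTT, TGACTCTT, TGACCTTT or TGACTTTT) also in 3 (9.09% against 6.77%). IIL1, CYP83A1 and SUR1 were the members with a G-box, and each of them also held an AC element. The nitrate-responsive start was found at GSTF10, FMOGS-OX3 and GTR1. A match is only a run of letters in this window and does not show that a factor binds there.

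Some of the pathway's enzymes were split between organs by paralog in wild type. CYP79F1 and CYP79F2, the cytochrome P450 pair that opens the core pathway, lie side by side on chromosome 1 and divided the organs almost completely. CYP79F1 (AT1G16410), which accepts short and long chains, had deposited FPKM of 0.0577, 0.094 and 0 in the 3 Col-0 roots and of 141, 149 and 147 in the 3 Col-0 shoots. CYP79F2 (AT1G16400), which accepts long chains, had 109, 101 and 105 in roots and 3.36, 4.34 and 3.00 in shoots. In deposited FPKM, CYP79F2 made up 99.95% of the pair in Col-0 roots and 2.39% ± 0.41 (SD, n = 3) in Col-0 shoots. Their coding sequences are 91.9% identical with a longest identical run of 100 bases, so how reads were shared between them by the authors' counting is uncertain.

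A partial split was seen in the first committed enzymes. MAM3 (AT5G23020), the methylthioalkylmalate synthase that also makes long chains, had FPKM of 401, 357 and 404 in Col-0 roots against 7.98, 7.38 and 8.01 in shoots. MAM1 (AT5G23010), the synthase of short chains, had 128, 123 and 120 in roots against 162, 160 and 167 in shoots. MAM3 was thus the root form and MAM1 was present in both, with coding sequences 83.8% identical.

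The regulators and the side-chain enzymes differed as well. MYB28 (AT5G61420) had FPKM of 61.9, 54.4 and 62.7 in Col-0 roots and 77.9, 86.9 and 86.2 in shoots. MYB29 (AT5G07690) had 0.0256, 0.25 and 0.256 in roots and 55.8, 63.3 and 58.5 in shoots. MYB76 (AT5G07700) had no count in the Col-0 roots and 87, 70 and 44 counts in the shoots, so MYB28 was the one of the 3 activators with an appreciable level in both organs. Of the flavin monooxygenases that oxidise the side chain sulfur, FMOGS-OX1 (AT1G65860) had a mean FPKM of 2.69 in roots and 46.7 in shoots, FMOGS-OX3 (AT1G62560) 7.61 and 73.0, and FMOGS-OX4 (AT1G62570) 33.1 and 3.91. AOP3 (AT4G03050), a dioxygenase that makes hydroxyalkyl side chains, had 23, 28 and 42 counts in Col-0 roots and 2 counts over all 18 shoot libraries.

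Across the 32 members, 18 were called higher and 11 lower in Col-0 shoots than in Col-0 roots (edgeR's quasi-likelihood test, Benjamini-Hochberg adjusted p under 0.05), where 78.4% of all 21554 genes tested were called (36.4% higher and 42% lower). The split depended on the scale: with limma on the deposited FPKM it was 13 higher and 16 lower, and all genes then shifted by -0.55 in their median. BAT5, SOT17 and UGT74B1, called higher in shoots after TMM scaling of counts (log2 0.53, 0.61 and 0.37), were lower there on that scale (-0.18, -0.10 and -0.34), and their relation between organs is therefore given as undecided. The large splits of CYP79F1 and CYP79F2, MAM3, MYB29, FMOGS-OX1 and FMOGS-OX3 had the same direction on both scales. For transport, GTR1 (AT3G47960) had mean FPKM of 16.7 in roots and 32.8 in shoots and GTR2 (AT5G62680) 85.7 and 20.2.

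**Figure D1:**
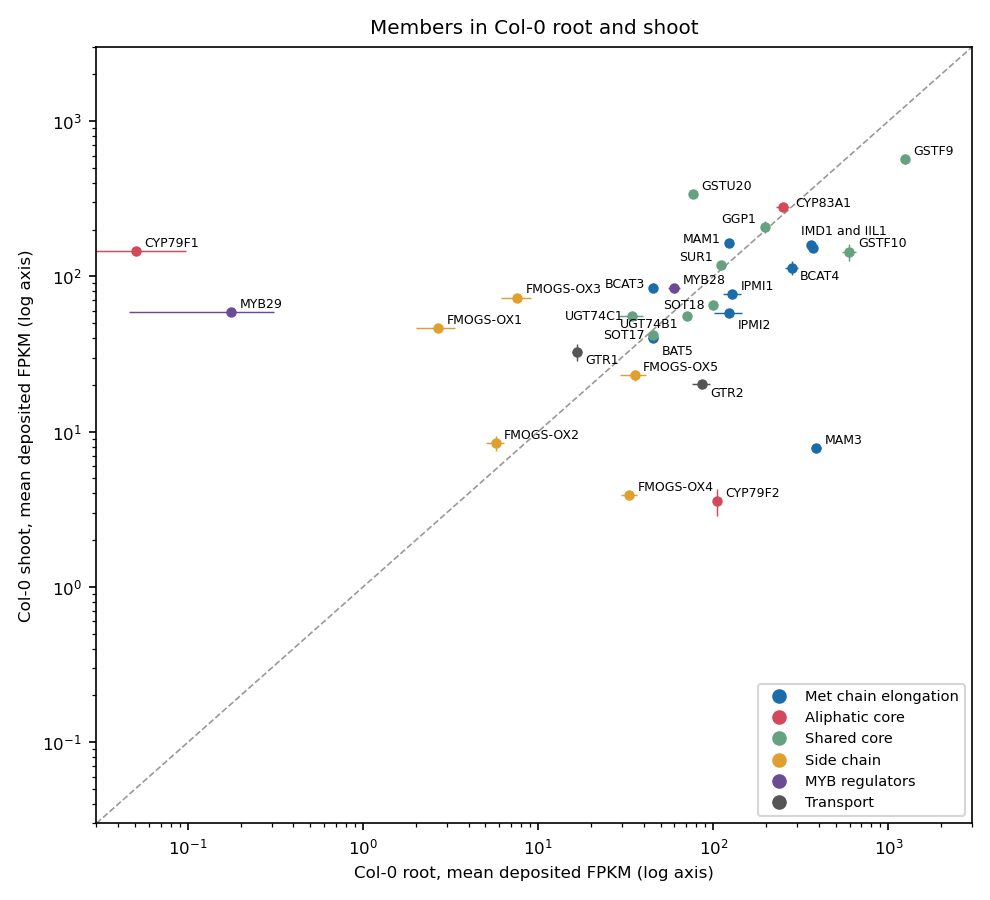
Mean deposited FPKM of the members in Col-0 roots (horizontal, log axis) and Col-0 shoots (vertical, log axis), with bars of 1 SD over 3 libraries and colours for roles; the dashed line marks equal levels. CYP79F1 and MYB29 stand far above the line and MAM3, CYP79F2 and FMOGS-OX4 far below it; AOP3, MYB76 and GSTF11, each with a mean of 0 in an organ, are left out.

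GSTF11 (AT3G03190), a glutathione transferase assigned to the sulfur donation step, had no count in any of the 36 libraries, which allows up to 0.00772 CPM over the root libraries and 0.00721 CPM over the shoot libraries, counting error alone considered. In the RefSeq annotation 100% of its locus is overlapped by AT3G03200 on the other strand, and the strand setting of the counting is not given in the sources used here; the part of the overlap in the 0 was not tested. Overlaps on the other strand also touch FMOGS-OX5 (44.5% of its length, with a neighbour on its own strand as well), UGT74C1 (14.1%), GTR1 (12.8%) and BCAT4 (11.7%), whose counts are uncertain to that extent.

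In roots, mutation of NLP7 went with a higher level of most of the pathway. In nlp7-1 roots 19 of 29 members tested were called higher and 0 lower, with a median log2 fold change of 0.35, while 7.94% of all 20486 genes tested were called (4.5% higher and 3.45% lower) and their median was -0.01. In the double mutant 16 members were called higher and 1 lower, with a median of 0.26, against 25.2% of all genes (12.9% higher and 12.2% lower). Of the 7 root markers, CASP1, COBL9 and RHD6 rose in double mutant roots (0.55, 0.62 and 0.46) and IRT1 and NRT2.1 fell (-1.55 and -1.51), with the list summing to 2459 to 3297 CPM against 2768 to 3764 CPM in Col-0; in nlp7-1 roots 0 rose and 1 fell. Their part in the members' root calls was not tested. In the nlp2 single mutants few members were called: 4 higher and 0 lower in nlp2-3 (6.84% of all genes called, 3.36% higher and 3.48% lower), and 2 higher and 1 lower in nlp2-2 (7.12%, 3.2% and 3.91%). With the replicate number as a block, 7 were called in nlp2-3, with FMOGS-OX4 and MAM1 added as higher and MYB28 as lower, and 4 in nlp2-2, with FMOGS-OX3 added as lower. Summed over the 33 members, deposited FPKM were 4945 ± 260 in Col-0 roots, 6327 ± 293 in nlp7-1 roots and 6173 ± 149 in double mutant roots (SD, n = 3). The sums were 5465 ± 327 in nlp2-3 roots, and 5272 ± 89 in nlp2-2 roots against 5108 ± 431 in Col-4 roots.

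**Figure D2:**
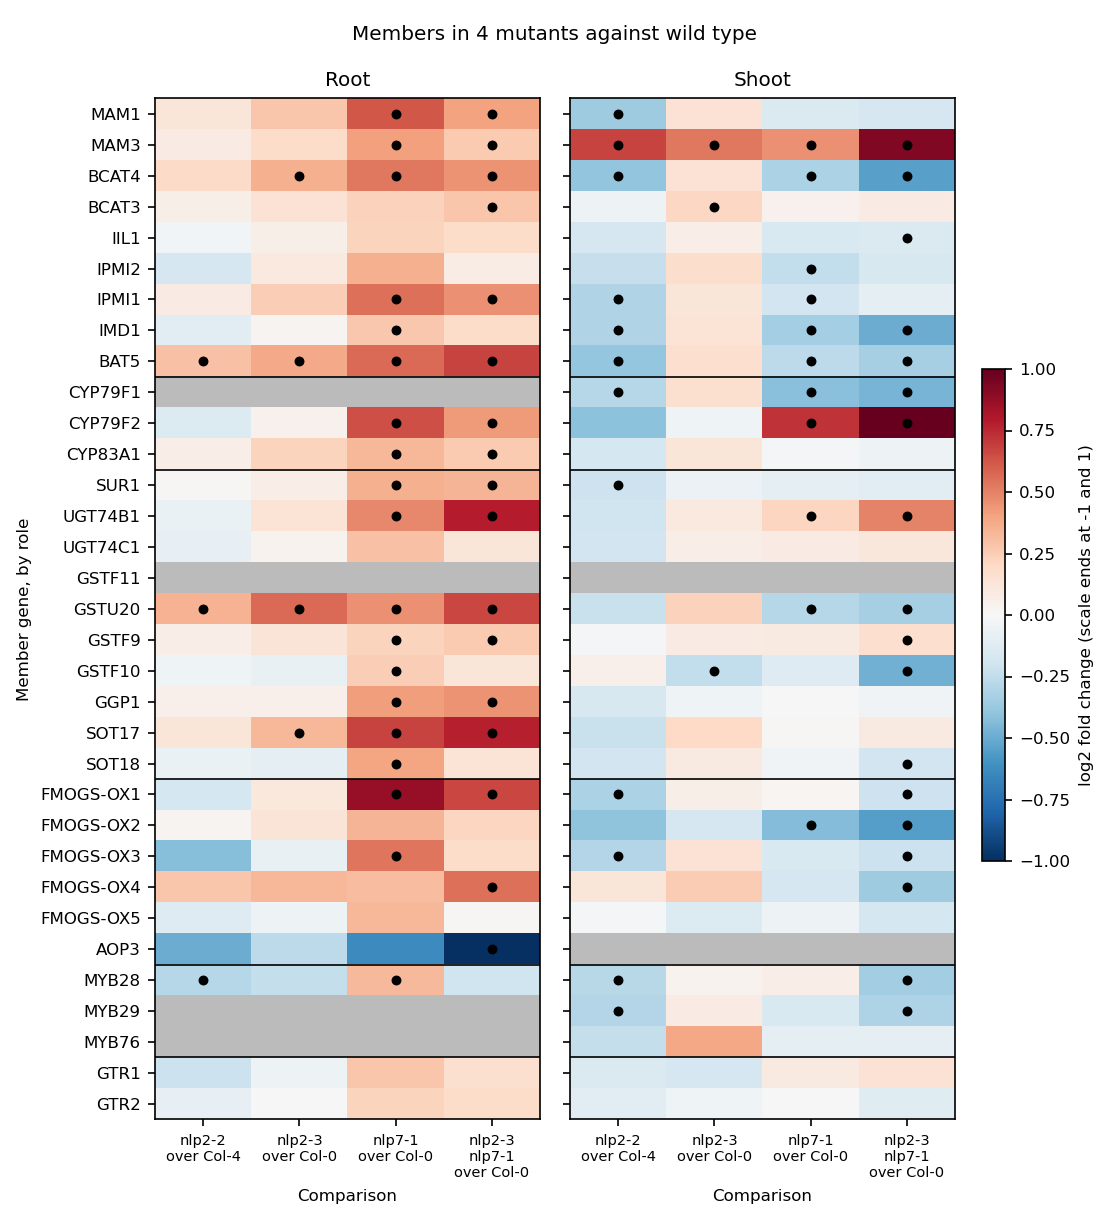
Log2 fold change of each member (rows, by role, with lines between roles) in each mutant over its wild type (columns), roots at the left and shoots at the right; colours end at -1 and 1, dots mark members called by edgeR's quasi-likelihood test, and grey cells were not tested. The root columns of nlp7-1 and the double mutant are mostly higher, and the shoot columns of nlp2-2, nlp7-1 and the double mutant hold most of the lower calls, with MAM3 higher in all 4 shoot columns.

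Of the 9 genes of methionine chain elongation, 6 rose in nlp7-1 roots and 6 in double mutant roots. BAT5 (AT4G12030), the plastid carrier of the 2-oxo acids, rose in all 4 mutants. Its TMM-scaled values were 98.3, 84.6 and 94.0 CPM in Col-0 roots, 122, 113 and 126 in nlp2-3, 125, 133 and 152 in nlp7-1, and 148, 132 and 162 in the double mutant. Every mutant library lay above every Col-0 library. The log2 fold changes were 0.38 ± 0.09, 0.56 ± 0.09 and 0.67 ± 0.09 (SE; edgeR adjusted p = 0.0090, 0.00027 and 8.4e-06). In nlp2-2 the values were 114, 115 and 114 CPM against 83.6, 94.8 and 100 in Col-4, again without overlap (0.30 ± 0.09, edgeR adjusted p = 0.044). The nlp2-2 call was lost in 5 of 14 alternatives, each without 1 library, and the nlp2-3 call in 1.

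BCAT4 (AT3G19710), the aminotransferase that starts the elongation, had 447, 370 and 423 CPM in Col-0 roots and 547, 475 and 560 in nlp2-3. The nlp7-1 roots had 552, 606 and 627, and the double mutant 563, 526 and 602. All 9 mutant libraries were above the 3 of Col-0, and BCAT4 rose in each of these mutants (0.35 ± 0.10, 0.53 ± 0.10 and 0.45 ± 0.10; edgeR adjusted p = 0.030, 0.0014 and 0.0018), though the nlp2-3 call was lost in 6 of 14 alternatives, 1 of them the fit of only the groups compared. MAM1 had 241, 227 and 223 CPM in Col-0, 333, 347 and 384 in nlp7-1 and 292, 291 and 333 in the double mutant, rising by 0.62 ± 0.09 and 0.41 ± 0.09 (edgeR adjusted p = 0.00013 and 0.0022).

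MAM3, which had the highest mean FPKM of this group in Col-0 roots, had 755, 654 and 751 CPM in Col-0, 901, 928 and 1033 in nlp7-1 and 841, 807 and 939 in the double mutant. These groups did not overlap either, and the changes were 0.41 ± 0.09 and 0.26 ± 0.09. IPMI1 (AT3G58990), a small subunit of the isopropylmalate isomerase, rose by 0.55 and 0.45 in nlp7-1 and the double mutant, while its partner IPMI2 (AT2G43100) missed the threshold with 0.36 and 0.07. IMD1 (AT5G14200), the dehydrogenase of the cycle, rose in nlp7-1 (0.27), and BCAT3 (AT3G49680), the plastid aminotransferase that closes the elongation, rose in the double mutant (0.28). IIL1 (AT4G13430), the large isomerase subunit, was called in neither (0.23 and 0.18).

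In the core pathway CYP79F2 had 226, 203 and 214 CPM in Col-0 roots and 232, 205 and 228 in nlp2-3. The nlp7-1 roots had 315, 336 and 356 and the double mutant 293, 279 and 292. The nlp2-3 libraries overlapped Col-0 (0.05 ± 0.08, not called). Those of nlp7-1 and the double mutant stood apart (0.65 ± 0.08 and 0.42 ± 0.08, edgeR adjusted p = 1.5e-05 and 0.00033). CYP83A1 (AT4G13770), which oxidises the aldoximes, rose by 0.33 and 0.26. CYP79F1 stayed near 0 in every root library, with at most 15 counts; it was highest in the double mutant, with 15, 9 and 7 counts against 3, 4 and 0 in Col-0, and it was not tested there. Leaf markers summed to 43.4 to 81.3 CPM in those double mutant roots and to 42.7 to 131 CPM in the Col-0 roots.

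Of the 9 shared core genes tested, 8 rose in nlp7-1 roots and 6 in double mutant roots. SOT17 (AT1G18590), a sulfotransferase of the last core step, had 67.2, 65.4 and 73.5 CPM in Col-0, 86.5, 79.3 and 93.2 in nlp2-3, 102, 114 and 114 in nlp7-1, and 112, 120 and 121 in the double mutant. The 4 groups lay in that order without overlap between Col-0 and any mutant (0.33 ± 0.10, 0.68 ± 0.10 and 0.77 ± 0.10; edgeR adjusted p = 0.044, 0.00013 and 6.2e-06), and the nlp2-3 call was lost in 5 of 14 alternatives. Its paralog SOT18 (AT1G74090) rose in nlp7-1 alone (0.39), and the double mutant lay below nlp7-1 (-0.26 ± 0.07, edgeR adjusted p = 0.039; lost in 7 of 13 alternatives).

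UGT74B1 (AT1G24100), the S-glucosyltransferase shared with the indole branch, had 124, 116 and 121 CPM in Col-0, 164, 166 and 175 in nlp7-1, and 245, 179 and 198 in the double mutant. The double mutant held the highest values, with 1 library well above the other two, and the changes were 0.48 ± 0.09 and 0.78 ± 0.09 (edgeR adjusted p = 0.0024 and 3.6e-06). GSTU20 (AT1G78370), a glutathione transferase, rose in all 4 mutants. It had 94.6, 88.7 and 84.3 CPM in Col-0, 136, 126 and 134 in nlp2-3, 120, 131 and 118 in nlp7-1, and 148, 139 and 138 in the double mutant. No mutant library overlapped Col-0 (0.57 ± 0.08, 0.46 ± 0.08 and 0.67 ± 0.08; edgeR adjusted p = 0.00010, 0.00069 and 2.3e-06), and nlp2-2 stood above Col-4 as well (0.35 ± 0.08).

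SUR1 (AT2G20610), the C-S lyase, rose by 0.35 and 0.34 and GGP1 (AT4G30530), the peptidase that trims the glutathione conjugate, by 0.42 and 0.45 in nlp7-1 and the double mutant. GSTF9 (AT2G30860), a glutathione transferase with the highest mean FPKM of all members in Col-0 roots, rose by 0.22 and 0.26, and GSTF10 (AT2G30870) rose in nlp7-1 alone (0.25). UGT74C1 (AT2G31790) missed the threshold in both (0.29 and 0.12).

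Among the side-chain genes, FMOGS-OX1 rose from 6.18, 3.89 and 4.14 CPM in Col-0 roots to 7.66, 9.27 and 9.27 in nlp7-1 and 7.62, 6.81 and 8.26 in the double mutant (0.87 ± 0.17 and 0.67 ± 0.17; edgeR adjusted p = 0.0027 and 0.0076). FMOGS-OX3 rose in nlp7-1 (0.54) and FMOGS-OX4 in the double mutant (0.55). FMOGS-OX2 (AT1G62540) and FMOGS-OX5 (AT1G12140) were not called in any root comparison with wild type. AOP3 was the 1 member that fell in double mutant roots, from 1.05, 1.51 and 2.1 CPM to 0.804, 0.597 and 0.775 (-1.09 ± 0.34, edgeR adjusted p = 0.023); the values rest on 15 to 42 counts, and the call was lost in 4 of 14 alternatives.

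MYB28, the activator present in roots, rose in nlp7-1 and was not called in the double mutant. It had 118, 101 and 118 CPM in Col-0, 96.8, 93.3 and 95.5 in nlp2-3, 132, 142 and 149 in nlp7-1, and 96.6, 101 and 96.6 in the double mutant. The nlp7-1 libraries were the highest, those of nlp2-3 lay below the lowest of Col-0, those of the double mutant reached up to about the lowest of Col-0, and nlp2-2 (92.5, 92.9 and 92.3) lay below Col-4 (99.1, 123 and 117). MYB28 rose in nlp7-1 (0.33 ± 0.07, edgeR adjusted p = 0.0071) and fell in nlp2-2 (-0.29 ± 0.07, 0.019), while nlp2-3 (-0.24, 0.053; called with the replicate block) and the double mutant (-0.20, 0.051) missed the threshold. Against nlp7-1 the double mutant was lower by 0.52 ± 0.07 on the log2 scale (edgeR adjusted p = 0.00010). The carriers GTR1 and GTR2 were not called in roots of any mutant; their log2 fold changes ran from -0.21 to 0.28.

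**Figure D3:**
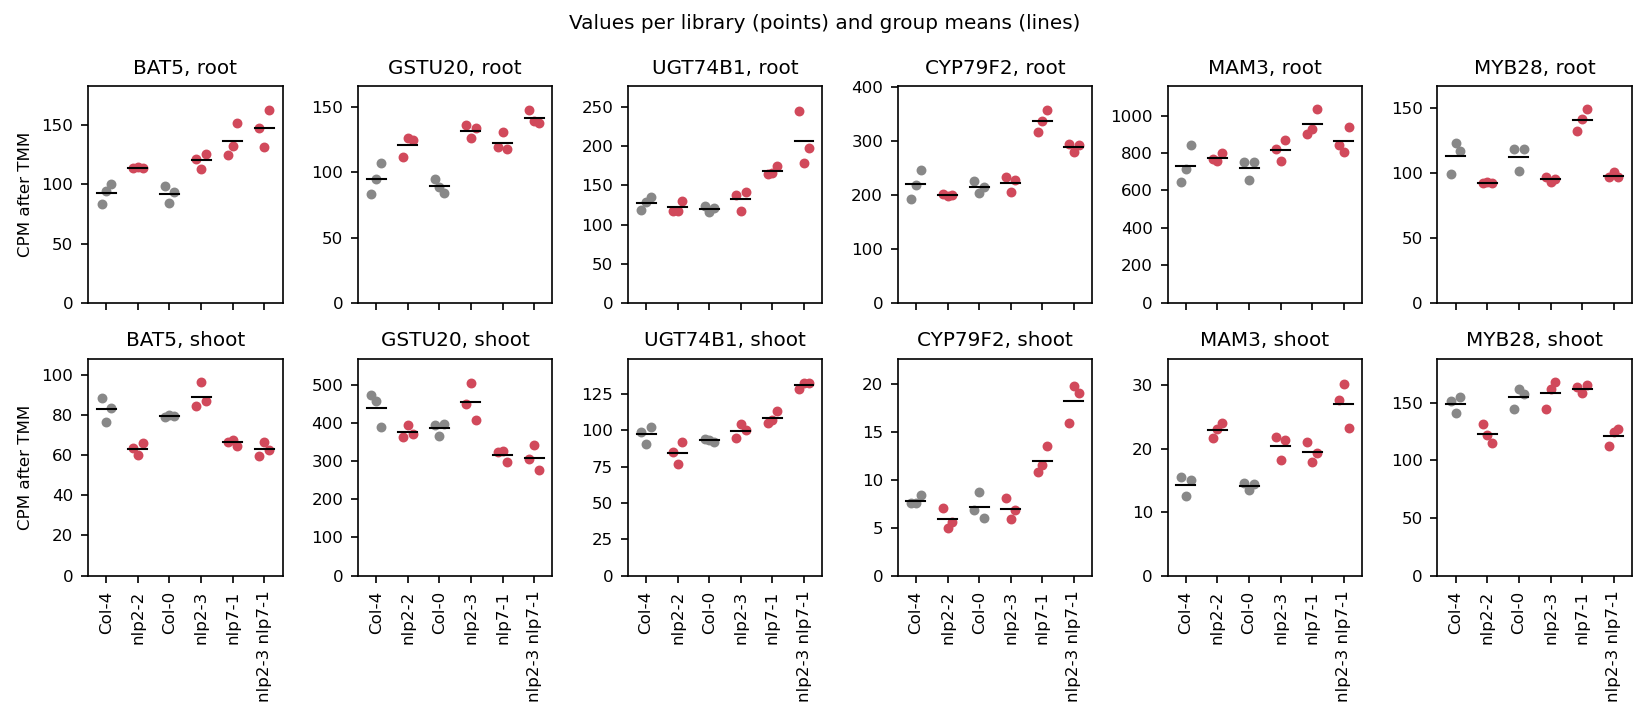
TMM-scaled CPM of 6 members in each library (points) with group means (lines), roots in the upper row and shoots in the lower, wild types in grey and mutants in red; each vertical axis starts at 0 and has its own range. BAT5 and GSTU20 are higher in the roots and lower in the shoots of nlp7-1 and the double mutant, and CYP79F2 is higher in both organs.

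The root calls rested unequally on single libraries. In nlp7-1, 12 of the 19 calls held in each of 14 alternatives, and leaving out the nlp7-1 root replicate 3 left 12 calls; GSTF9, GSTF10, IMD1, FMOGS-OX3, CYP83A1, MAM3 and MYB28 were the members that lost theirs in at least 1. In the double mutant 14 of 17 calls held in all 14, with CYP83A1, MAM3 and AOP3 lost in some. In nlp2-3 the count was 2 without nlp2-3 root replicate 1 and 1 without replicate 3, and 7 with DESeq2. In nlp2-2 it was 1 without any 1 of its own 3 libraries, without Col-4 replicate 1 or without Col-4 replicate 2.

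In shoots of nlp2-2, nlp7-1 and the double mutant most members called were lower. Calls were 3 higher and 8 lower of 31 members in nlp7-1 (9.77% of 19137 genes called, 4.84% higher and 4.93% lower) and 4 higher and 14 lower in the double mutant (31.1%, 15.5% and 15.6%). They were 1 higher and 11 lower in nlp2-2 (3.06%, 0.737% and 2.33%), and 2 higher and 1 lower in nlp2-3 (5.8%, 1.33% and 4.47%). Members' median log2 fold changes were -0.09, -0.16, -0.22 and 0.10 in that order, with those of all genes between -0.01 and 0.02. With the replicate number as a block, 1 member was called higher and 18 lower in nlp2-2, and 4 higher and 1 lower in nlp2-3. The 8 leaf markers did not pass the test in nlp2-2, nlp2-3 or nlp7-1 shoots, but 6 of the 8 were lower in the double mutant, by a median of -0.20 over the list and from 71459 to 74945 CPM in Col-0 down to 65115 to 66890 CPM in sum; their part in the double mutant's shoot calls was not tested.

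In chain elongation 5 of 9 genes fell in nlp2-2 shoots, 5 in nlp7-1 shoots and 4 in double mutant shoots. BAT5 had 78.8, 80.1 and 79.4 CPM in Col-0 shoots, 66.7, 67.7 and 64.6 in nlp7-1, and 59.5, 66.7 and 62.8 in the double mutant. Those groups did not overlap, and the falls were -0.26 ± 0.06 and -0.33 ± 0.06 (edgeR adjusted p = 0.0071 and 0.00015). In nlp2-2 it had 63.3, 60.2 and 66.2 against 88.2, 76.6 and 83.3 in Col-4 (-0.39 ± 0.06, edgeR adjusted p = 0.00032). In nlp2-3, the other allele, it had 84.5, 96.3 and 86.7, all above Col-0, and was not called (0.17 ± 0.06, 0.13).

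BCAT4 fell in the same 3 mutants. Its values were 154, 158 and 181 CPM in Col-0, 129, 133 and 134 in nlp7-1 and 111, 121 and 107 in the double mutant, and 130, 137 and 145 in nlp2-2 against 196, 175 and 172 in Col-4. Every library of these mutants was below its wild type (-0.32 ± 0.08, -0.54 ± 0.08 and -0.40 ± 0.08). IMD1 also fell in these mutants (-0.34, -0.49 and -0.30), IPMI1 in nlp7-1 and nlp2-2 (-0.19 and -0.30), IPMI2 in nlp7-1 (-0.24), IIL1 in the double mutant (-0.14) and MAM1 in nlp2-2 (-0.36). When Col-0 served as the reference, IMD1 (-0.04) and MAM1 (-0.20) were not called in nlp2-2 (edgeR adjusted p = 0.76 and 0.14). BCAT3 was called once, higher in nlp2-3 (0.21).

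MAM3 rose in shoots of every mutant. Col-0 shoots had 14.6, 13.5 and 14.4 CPM, nlp2-3 21.8, 18.2 and 21.4, nlp7-1 21.1, 18.0 and 19.3, and the double mutant 27.6, 30.2 and 23.2, while nlp2-2 had 21.7, 23.1 and 24.0 against 15.5, 12.6 and 15 in Col-4. Every mutant library was above every library of its wild type. The rises were 0.53 ± 0.10, 0.46 ± 0.10, 0.93 ± 0.10 and 0.68 ± 0.10 (edgeR adjusted p = 0.0011, 0.0046, 1.2e-07 and 0.00019), and all 4 calls held in all 14 alternatives. The share of MAM3 in the summed deposited FPKM of MAM1 and MAM3 went from 4.57% ± 0.14 in Col-0 to 9.28% ± 0.91 in the double mutant (SD, n = 3), still far from the 75.8% of Col-0 roots.

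In the CYP79F pair the root form rose as well, but here its paralog also fell. MAM1 was called lower in neither nlp7-1 nor double mutant shoots. CYP79F1 had 324, 344 and 333 CPM in Col-0 shoots, 254, 253 and 241 in nlp7-1 and 233, 258 and 234 in the double mutant, falling by 0.42 ± 0.06 and 0.47 ± 0.06 on the log2 scale (edgeR adjusted p = 1.5e-05 and 4.3e-07). It also fell in nlp2-2, with 288, 300 and 313 against 390, 353 and 359 in Col-4 (-0.29 ± 0.06); that call was lost when Col-0 took the place of Col-4 (edgeR adjusted p = 0.098). CYP79F2, at a much lower level, had 6.80, 8.78 and 5.97 CPM in Col-0, 10.8, 11.6 and 13.6 in nlp7-1 and 15.9, 19.8 and 19.0 in the double mutant. It rose by 0.73 ± 0.15 and 1.34 ± 0.14 (edgeR adjusted p = 0.0017 and 8.8e-08), while nlp2-3 (8.11, 5.92 and 6.88) overlapped Col-0. Its share of the pair's deposited FPKM was 2.39% in Col-0, 5.20% ± 0.73 in nlp7-1 and 7.91% ± 0.65 in the double mutant. For both gene pairs the member that prevailed in roots rose in shoots of nlp7-1 and the double mutant. Of the 7 root markers, 2 were tested in shoots, and 0 passed the test in nlp7-1. In the double mutant NRT2.1 rose (2.28), a gene that fell in that mutant's roots (-1.51), and the other marker was not called (0.30). The root list summed to 32 to 35.9 CPM in the double mutant shoots against 22.4 to 28.1 CPM in Col-0. The part of these levels in the rises of MAM3 and CYP79F2 was not tested.

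Shared core genes moved in both directions in shoots. UGT74B1 rose here too, from 94.3, 93.1 and 91.9 CPM in Col-0 to 105, 107 and 113 in nlp7-1 and 128, 133 and 133 in the double mutant (0.22 ± 0.06 and 0.50 ± 0.06; edgeR adjusted p = 0.021 and 6.1e-07). No library of either mutant overlapped Col-0, though the nlp7-1 call was lost in 6 of 14 alternatives. GSTU20 fell in nlp7-1 and the double mutant (-0.29 and -0.33; the nlp7-1 call was lost in 5 of 14), GSTF10 in nlp2-3 and the double mutant (-0.24 and -0.48) and SOT18 in the double mutant (-0.19), whereas GSTF9 rose there (0.17). SUR1 fell in nlp2-2 (-0.21). CYP83A1, UGT74C1, GGP1 and SOT17 were called in no shoot comparison of a mutant with its wild type, with values between -0.23 and 0.20.

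Of the side-chain genes, FMOGS-OX2 fell in nlp7-1 and the double mutant (-0.44 and -0.55), FMOGS-OX1 and FMOGS-OX3 fell in nlp2-2 (-0.32 and -0.29) and the double mutant (-0.21 and -0.21), and FMOGS-OX4 fell in the double mutant (-0.35). FMOGS-OX5 was not called in any of the 4. The regulators MYB28 and MYB29 fell in nlp2-2 and the double mutant. MYB28 had 145, 162 and 158 CPM in Col-0, 163, 158 and 165 in nlp7-1 and 112, 124 and 127 in the double mutant, and 132, 122 and 115 in nlp2-2 against 151, 141 and 154 in Col-4. It fell in the double mutant (-0.35 ± 0.06, edgeR adjusted p = 0.00013) and in nlp2-2 (-0.28 ± 0.06, 0.012) and was not called in nlp7-1 (0.07). MYB29 fell by -0.31 and -0.29 there, the nlp2-2 call being lost in 8 of 14 alternatives, and MYB76 was called in none. GTR1 and GTR2 were not called in any mutant against wild type, with values from -0.17 to 0.15.

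A smaller share of calls held throughout in shoots than in roots for nlp7-1 and the double mutant, but not for nlp2-2 or nlp2-3. In nlp7-1 5 of 11 held in all 14 alternatives, with IPMI1 lost in 9, IPMI2 in 8, UGT74B1 in 6, FMOGS-OX2 and GSTU20 in 5 each and BCAT4 in 1, and the count was 6 without Col-0 shoot replicate 3 or nlp7-1 replicate 3 and 7 without nlp7-1 replicate 1 or 2. In nlp2-2 5 of 12 held, with MYB29 lost in 8, SUR1 and MYB28 in 5 each, IMD1 and MAM1 in 3 each and CYP79F1 and FMOGS-OX1 in 1 each, and 7 calls were left without Col-4 replicate 1 or nlp2-2 replicate 1. In nlp2-3 the count was 1 without Col-0 replicate 3, nlp2-3 replicate 1 or nlp2-3 replicate 2, MAM3 being the call that held throughout; BCAT3 was lost in 9 and GSTF10 in 7. In the double mutant 13 of 18 held, and those lost were IIL1 in 7, FMOGS-OX4 and GSTF9 in 6 each, FMOGS-OX1 in 4 and SOT18 in 2.

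Whether effects differed between organs was tested by the difference between the effect in shoots and the effect in roots in a fit of all 36 libraries. A call shows that the effects differ, and not that their signs are opposite. In nlp7-1, BAT5, BCAT4, IPMI1, IMD1 and GSTU20 were called higher in roots and lower in shoots. SOT17, FMOGS-OX1, GGP1 and SUR1 were called higher in its roots and were not called in its shoots. For nlp7-1, 17 of 32 members were called with a lower effect in shoots and 0 with a higher one (6.39% of 21554 genes called, 3.38% lower and 3.02% higher; median of members -0.41). For the double mutant 18 were lower and 3 higher (23.2%, 11.3% and 11.9%; median -0.37). In nlp2-2 it was 4 lower and 1 higher (2.64%, 1.37% and 1.27%), and in nlp2-3 0, where 5 members had an unadjusted p under 0.05, DESeq2 called 1 and leaving out Col-0 root replicate 1 gave 1 (4.23%, 2.83% and 1.41%). BAT5 differed by -0.84 ± 0.11 in nlp7-1, -1.01 ± 0.11 in the double mutant and -0.70 ± 0.11 in nlp2-2 (edgeR adjusted p = 6.2e-06, 3.3e-08 and 0.00023). BCAT4 (-0.86, -0.99 and -0.60) and GSTU20 (-0.76, -1.0 and -0.59) differed in the same 3. CYP79F2 (0.91 ± 0.16) and MAM3 (0.66 ± 0.14) rose more in shoots than in roots of the double mutant, while in nlp7-1 no difference was called for them (0.06 ± 0.16 and 0.04 ± 0.14). UGT74B1, which rose in both organs, was not called either (-0.27 and -0.29). The calls for CYP79F1 and MYB29 in the double mutant rest on root libraries with 0 to 15 and 0 to 9 counts, so no size is read from them.

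**Figure D4:**
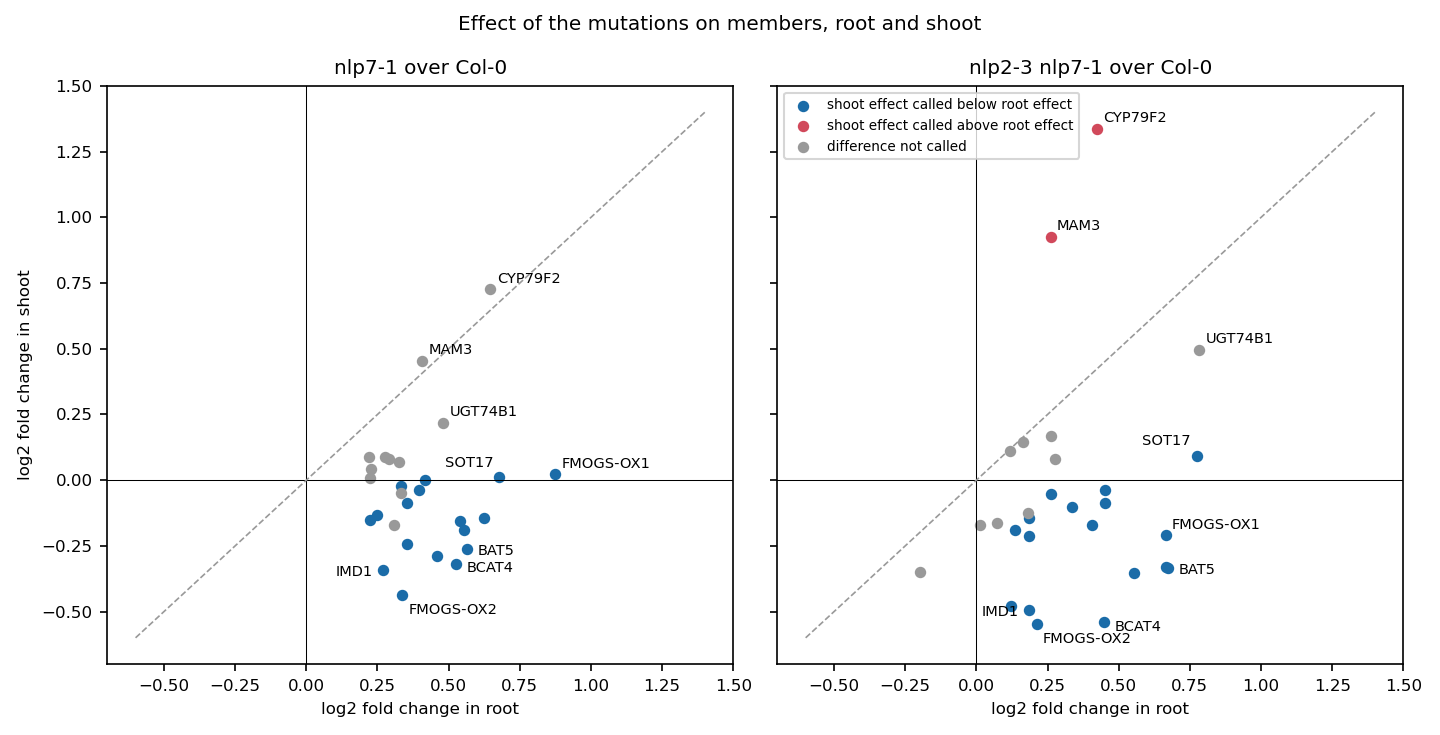
Log2 fold change in roots (horizontal) and in shoots (vertical) of the 28 members tested in both, for nlp7-1 and the double mutant over Col-0; blue and red points are members whose effect was called lower or higher in shoots than in roots, grey ones were not called, and the dashed line marks equal effects. Most points lie right of 0 and below the dashed line, and CYP79F2, MAM3 and UGT74B1 were called higher in both organs of both mutants, GSTF9 in both organs of the double mutant; 9 members are labelled.

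Whether the effects of the nlp2-3 and nlp7-1 mutations added up was read from the double mutant. Against nlp7-1, the double mutant had 0 members higher and 2 lower in roots (MYB28 and SOT18; 6.51% of all genes called, 2.44% higher and 4.08% lower), and 3 higher and 3 lower in shoots (7.99%, 3.77% and 4.23%). The shoot genes were MAM3 (0.47), CYP79F2 (0.61) and UGT74B1 (0.28), which were higher, and MYB28 (-0.42), GSTF10 (-0.34) and FMOGS-OX1 (-0.23), which were lower. The root count was 1 without any 1 of the 3 nlp7-1 libraries. Against nlp2-3, 6 members were higher and 0 lower in roots (6.47%, 2.82% and 3.66%), and 4 were higher and 18 lower in shoots (26.6%, 13.6% and 12.9%); GTR1 was one of those higher in shoots (0.31 ± 0.09, edgeR adjusted p = 0.0094).

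On the log2 scale, departure of the double mutant from the added single effects was called for 0 of 29 members in roots (0.239% of all genes called, 0.0635% above and 0.176% below the sum; 10 members with an unadjusted p under 0.05; DESeq2 called 1). Of these 29 values 28 were below 0, with a median of -0.23. All of them share the same Col-0, nlp2-3 and nlp7-1 libraries. In shoots 1 of 31 was called (3.76% of all genes, 2.12% above and 1.64% below): MYB28 lay 0.45 ± 0.09 below the sum on the log2 scale (a value of -0.45, edgeR adjusted p = 0.0039), with neither single mutant called and the double mutant called lower. The count was 3 without Col-0 shoot replicate 3 or the double mutant's replicate 2, and 2 without nlp2-3 shoot replicate 1 or 3, with MYB28 called in all 19 alternatives.

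The 2 nlp2 alleles differed in shoots. A contrast of the nlp2-2 effect with the nlp2-3 effect, chosen after the values were seen, called 7 of 31 members lower in nlp2-2 and 0 higher (66 of all genes, 0.345%, of them 0.0993% lower and 0.246% higher), and 0 of 29 in roots (0.0635%, 0.0244% and 0.0391%; 0 with an unadjusted p under 0.05; DESeq2 also gave 0 there). The 7 were BAT5 (-0.55 ± 0.09), BCAT4 (-0.54), MAM1 (-0.50), CYP79F1 (-0.45), IMD1 (-0.44), FMOGS-OX3 (-0.44) and IPMI1 (-0.43); BAT5, CYP79F1 and FMOGS-OX3 held in all 19 alternatives. The count ran from 3, without Col-4 shoot replicate 1, nlp2-2 replicate 1 or nlp2-3 replicate 2, to 11 without Col-4 replicate 3, and was 4 without Col-0 replicate 1 or 2 or Col-4 replicate 2. With the replicate number as a block, 11 were called lower in nlp2-2 shoots and 0 higher. The alleles were compared with different wild types. Col-4 over Col-0 called 0 members in roots (0.0391% of genes, 0.0146% higher and 0.0244% lower; 0 with an unadjusted p under 0.05; 0 by DESeq2) and 0 in shoots (0.794%, 0.183% and 0.611%; 8 with an unadjusted p under 0.05; 1 by DESeq2; 1 without Col-4 shoot replicate 3), where 28 of 31 values were above 0. Set against Col-0, nlp2-2 shoots had 1 member higher and 9 lower, where 1360 of 19137 genes were called (473 higher and 887 lower). The members' median was then -0.118, against -0.225 with Col-4.

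Genes around the pathway gave a frame for these values. Of the indole branch, 12 genes were tested in roots and 10 in shoots. None fell in roots of any mutant, and 6 rose for nlp7-1, 6 for the double mutant, 5 for nlp2-3 and 1 for nlp2-2, among them CYP79B2, the P450 that opens that branch (0.82, 1.23, 0.57 and 0.29), where 7.94%, 25.2%, 6.84% and 7.12% of all genes were called. In shoots, where the aliphatic genes were mostly lower, CYP79B2 rose in nlp7-1 and the double mutant (1.23 and 1.61), and so did CYP83B1 (0.28 and 0.31) and SOT16 (0.31 and 0.35), among 4 rising and 1 falling in nlp7-1 (9.77% of all genes called) and 5 rising and 3 falling in the double mutant (31.1%). MYB34, an indole activator, rose in roots of nlp2-3, nlp7-1 and the double mutant (0.38, 0.60 and 0.88), and MYB51, another, fell in shoots of nlp2-3 and the double mutant (-1.08 and -1.31).

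Of 11 genes that activate and reduce sulfate, 4 rose and 0 fell in nlp2-3 roots (6.84% of all genes called), 6 and 1 in nlp7-1 roots (7.94%) and 6 and 2 in double mutant roots (25.2%). APK1 and APK2, the kinases that supply the sulfate donor of the sulfotransferases, rose in all 3 (0.35, 0.53 and 0.69; 0.51, 0.91 and 1.08), and APR1, a sulfate-reducing enzyme, rose in nlp7-1 and the double mutant (0.49 and 0.42). In shoots 1 of the 11 rose in nlp7-1, where 9.77% of all genes were called, and 2 rose and 1 fell in the double mutant, where 31.1% were, APK2 by 0.21 among them, and in nlp2-2 both APK1 (-0.21) and APK2 (-0.30) fell. SDI1, a repressor induced by sulfur deficiency, fell in nlp2-3 shoots (-1.65) and rose in nlp7-1 shoots (1.09), and SDI2 fell in double mutant roots (-0.30). MYC2, a partner of the MYB activators, had no count in any library; the strand setting of the counting is not given, and its part in this 0 was not tested.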

How the data were processed

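RNA-seq was made from roots and shoots of 6 genotypes, 3 libraries each. The authors deposited read counts per gene and FPKM for each library; per the submitters' processing notes the tools were HISAT2 and HTSeq and the build TAIR10, and their versions and the strand setting are not given in the sources used here. The deposited FPKM followed from the counts for 11125 genes within 1%. Groups were taken from the titles. Counts were fitted per organ, and over all 36 libraries for differences between organs, with edgeR 4.0.16 in R 4.3.3 (filterByExpr with a minimum count of 10 and a total of 15, TMM scaling, quasi-likelihood test, Benjamini-Hochberg adjusted p under 0.05 over all genes). CPM are TMM-scaled. Totals per library, which set the counting error, stand in the text; a count of 0 allows 3 counts, and intervals and floors cover counting error only. Alternatives were RLE scaling, DESeq2 1.42.0, no filter, limma 3.58.1 on log2(FPKM + 1) or log2(FPKM + 0.1), only the groups compared, the replicate block, the other wild type and each library left out. Same-numbered libraries all correlated above 0.1 in their deviations for Col-0 and nlp2-3 roots (r 0.235 to 0.381) and for Col-4 and nlp2-2 roots (0.109 to 0.184), so in these comparisons, from the data and not the labels, the number was read as pairing the libraries. The main fit held no block, so the p-values given for the nlp2-2 and nlp2-3 root comparisons leave this pairing out. Replicate pairs differed by more than sampling noise (chi-square of 2.83 to 17.4 per gene over 36 pairs). Promoters were read with Python 3.11.15. A promoter sequence that met the rule for printing is not reported here. All members were named, and of other lists up to 4 called genes per comparison by size plus fixed regulators; other genes named were chosen after their values were seen. The members and lists were chosen with earlier results of these data known, and the contrast of the nlp2 alleles was chosen after seeing the data.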

Additional observations from a re-analysis of the deposited data

Results flagged for a closer look

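The effect of a mutation on these members differed between shoots and roots in 43 values, by the test of the difference itself (edgeR's quasi-likelihood test on all 36 libraries, Benjamini-Hochberg adjusted). Each value below is the log2 fold change in shoots minus that in roots. In nlp2-2 the members were MAM1 (-0.50), MAM3 (0.58), BCAT4 (-0.60), BAT5 (-0.70) and GSTU20 (-0.59). In nlp7-1 they were MAM1 (-0.78), BCAT4 (-0.86), IIL1 (-0.39), IPMI2 (-0.61), IPMI1 (-0.75), IMD1 (-0.62), BAT5 (-0.84), CYP83A1 (-0.37), SUR1 (-0.45), GSTU20 (-0.76), GSTF10 (-0.39), GGP1 (-0.43), SOT17 (-0.68), SOT18 (-0.45), FMOGS-OX1 (-0.86), FMOGS-OX2 (-0.79) and FMOGS-OX3 (-0.71). In the double mutant the effect was lower in shoots for MAM1 (-0.58), BCAT4 (-0.99), IIL1 (-0.33), IPMI1 (-0.54), IMD1 (-0.68), BAT5 (-1.01), CYP83A1 (-0.31), SUR1 (-0.44), GSTU20 (-1.0), GSTF10 (-0.60), GGP1 (-0.49), SOT17 (-0.68), SOT18 (-0.33), FMOGS-OX1 (-0.87), FMOGS-OX2 (-0.77), FMOGS-OX3 (-0.40) and FMOGS-OX4 (-0.91), and higher for MAM3 (0.66) and CYP79F2 (0.91). The double mutant's values for CYP79F1 (-2.33) and MYB29 (5.12) were called as well, but their root counts do not go above 15 and 9, so these sizes cannot be read. In shoots MYB28 departed from the sum of the nlp2-3 and nlp7-1 effects by -0.45 on the log2 scale.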

How the results depend on the processing

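Of 3032 values of called members over all alternatives, 2725 kept their direction and call, 300 kept their direction and lost the call, and 7 changed sign. Of 7796 values of members not called, 4 were called in an alternative with the opposite sign, those of FMOGS-OX5 and SOT18 below. With limma on log2(FPKM + 1) and log2(FPKM + 0.1), the shoot over root values of Col-0 changed sign for FMOGS-OX5 (-0.59 and -0.61), SOT17 (-0.10 and -0.11), UGT74B1 (-0.34 and -0.34), SOT18 (-0.59 and -0.60) and BAT5 (-0.18 and -0.19), where all genes shifted by -0.55 and -0.70, and the first also turned MYB29 in the double mutant (-0.0466, shoots minus roots); beyond the scaling, the cause was not tested. The labels do not say what a replicate number stands for. Outside the nlp2-2 and nlp2-3 root comparisons, same-numbered libraries of mutant and wild type did not all correlate above 0.1. In shoots r was 0.086 to 0.159 for nlp2-2 with Col-4. With Col-0 it was 0.088 to 0.096 for nlp2-3, 0.083 to 0.116 for nlp7-1 and -0.007 to 0.059 for the double mutant. Over all groups the median r was 0.084 in roots and 0.075 in shoots, with 21 and 9 of 45 pairs over 0.1. In roots 15 of 18 and in shoots 16 of 18 libraries correlated best with their own number. Of the 90 pairs with different numbers in each organ, 10 in roots and 0 in shoots were over 0.1. Whether a number stands for a shared batch was not tested, and the main fit held no block. With the replicate block, the call covered 7 members for nlp2-3 in roots and, in shoots, 19 for nlp2-2, 5 for nlp2-3, 3 for the departure from additivity in shoots, 2 for Col-4 over Col-0 in shoots and 11 for the allele difference in shoots; all genes called were 77 (for 49) and 1233 (for 719) for the departure in roots and shoots, 18 (for 8) and 622 (for 152) for Col-4 over Col-0, and 153 (for 66) for the allele difference in shoots. DESeq2 called 7 members in nlp2-3 roots, 1 for the departure in roots, 1 for Col-4 over Col-0 in shoots, 11 for the allele difference in shoots and 1 for nlp2-3 between organs, and 149, 20, 24, 332, 148 and 899 genes for the departure in roots, Col-4 over Col-0 in roots, the allele difference in roots, Col-4 over Col-0 in shoots, the allele difference in shoots and nlp2-2 between organs. Limma called 1 member for the double mutant over nlp7-1 in roots, 1 in nlp2-3 shoots and 3 for the allele difference in shoots with either pseudocount, and with 1 added 42 genes for that difference and 1046 for nlp2-2 between organs. With only the groups compared, members called were 2 in nlp2-3 roots, 6 and 3 for the double mutant over nlp7-1 and over nlp2-3 in roots, 1 in nlp2-3 shoots, 2 for the departure in shoots and 3 for the allele difference, and genes called were 659 (for 1401), 694 (for 1326) and 43 (for 66) in nlp2-3 roots, the double mutant over nlp2-3 in roots and the allele difference in shoots. Without the filter 1 member was called for Col-4 over Col-0 in shoots. With the other wild type, 1360 (for 586) and 2230 (for 1110) genes were called in nlp2-2 and nlp2-3 shoots. Leaving out 1 library, members called in roots ran from 1 to 2 for nlp2-2, 1 to 6 for nlp2-3 and 12 to 23 for nlp7-1, 1 to 2 for the double mutant over nlp7-1 in roots, 7 to 14 in nlp2-2, 1 to 4 in nlp2-3 and 6 to 8 in nlp7-1 shoots, 1 to 3 for the departure, 0 to 1 for Col-4 over Col-0 and 3 to 11 for the allele difference in shoots, and 0 to 1 for nlp2-3 between organs. Depth limits CYP79F1, MYB29, MYB76 and AOP3 in the organ where they have few or no counts.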

Other observations

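Other genes near the pathway also moved. BZO1, a benzoyl-CoA ligase of benzoyloxy glucosinolates, fell in shoots of nlp2-2 (-2.62) and of the double mutant (-1.55), by edgeR's quasi-likelihood test with Benjamini-Hochberg adjustment. In nlp2-3 and nlp7-1 shoots no gene of its list (other pathway members and paralogs) was called lower. The lowest values of that list were still -1.46 and -1.63 there, so the fall is not shown to be particular to the mutants called. GSL-OH, a side-chain hydroxylase, rose in shoots of nlp7-1 (0.38) and of the double mutant (0.68). AOP1, a relative of AOP3, rose in double mutant roots (1.41), as did GTR3, a relative of GTR1 and GTR2 (0.30). GGP3, a paralog of GGP1, fell in roots of nlp2-2 (-0.25), nlp2-3 (-0.31) and the double mutant (-0.21), where GGP1 rose in the last (0.45). APS4, an ATP sulfurylase, rose in roots of both nlp2 alleles (0.65 and 0.90) and fell in those of nlp7-1 (-0.37) and the double mutant (-0.26).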
